A study of Mus musculus with 6 samples.

Results

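The DNA replication genes were 38 genes of the machinery that copies the genome: the MCM2-7 helicase, the GINS complex, the origin recognition complex (ORC), licensing factors, the replicative polymerases, the sliding clamp and its loader, enzymes of Okazaki fragment maturation, cyclin E and ribonucleotide reductase. They were found by matching the gene name given for each probe on the arrays, which gave 46 probes. Of the 38 genes, 37 could be tested, among 21562 tested genes in all. The exception was Ccne2, whose single probe was not well above background on any of the 6 arrays.

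The arrays were one-colour Agilent expression arrays hybridised with Cy3-labelled total RNA of mouse embryonic stem (ES) cells. Both groups had 3 dishes: wild-type cells of the line BJ FF2 ES (WT), and cells derived from that line with Tet1, Tet2 and Tet3 knocked out (TKO). All dishes were cultured side by side in 2i, a serum-free ES cell medium with inhibitors of MEK and GSK3, on inactivated mouse embryonic feeder cells. The cells were moved to matrigel after feeder removal, and each sample was the RNA of one 35 mm dish. The labels give neither the altered exons of the Tet genes nor whether the TKO cells were 1 clone. The dishes are separate samples of 1 WT line and of cells made from it, so p-values measure only the spread between dishes, which may be technical.

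Replication is prepared in G1, when ORC, Cdc6 and Cdt1 load the ring-shaped MCM2-7 complex onto origins, a step that geminin blocks once S phase has begun. Cdc45 and GINS then join MCM2-7 to form the active helicase. Polymerase alpha-primase lays down primers, which polymerase epsilon extends on the leading strand and polymerase delta on the lagging strand, both held to DNA by the clamp PCNA that replication factor C (RFC) loads. Many of these genes are transcribed from E2F-dependent promoters as cells enter S phase. Mouse ES cells have a short G1 phase and spend a large share of their cycle in S phase. Tet1, Tet2 and Tet3 are dioxygenases that oxidise 5-methylcytosine in DNA.

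Levels are on a log2 scale, with the 75th percentile of an array as its zero; that percentile lay between 366.7 and 414.2 intensity units. A difference is the TKO mean minus the WT mean on this log2 scale, given with its standard error (SE) from limma. A gene was called higher or lower where the Benjamini-Hochberg adjusted p over all 21562 genes was under 0.05. In bulk RNA, fewer cells of a type and less RNA per cell cannot be told apart. No probe's level is read as higher than another probe's, because each probe has its own response. Where a pair of genes is compared, only the change between the groups in their within-array difference is given.

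The knocked-out genes were examined first. Tet1 was 3.84, 3.88 and 3.81 across WT dishes against 2.43, 2.52 and 2.47 across TKO dishes, and fell by 1.37 ± 0.042 (adjusted p = 6.33e-06). Tet2 was 3.88, 3.84 and 3.91 across WT dishes against 0.85, 1.00 and 0.96 across TKO dishes, and fell by 2.94 ± 0.053 (adjusted p = 1.84e-06). Tet3 was weak in both groups and did not pass the test (difference -0.24 ± 0.097, adjusted p = 0.0786). A probe outside the altered part of a gene would not report its loss. All 10 ES cell markers examined were well above background on every array. Of these, 8 fell (80.0%, against 29.9% of all tested genes) and 2 did not pass the test. The falls were largest for Zfp42 (-4.07), Tfcp2l1 (-1.65) and Klf4 (-1.07). They were smaller for Pou5f1 (-0.42), Sox2 (-0.36) and Nanog (-0.31). The summed level of all 10 markers was 1170 to 1250 times the 75th percentile in WT dishes and 837 to 906 times in TKO dishes. Of 11 feeder fibroblast markers, Lum was not well above background on any array and 10 could be tested. Of the latter, 7 rose (70.0%, against 29.7% of all tested genes), 1 fell (Pdgfrb, difference -2.26) and 2 did not pass the test. Col1a1, Col1a2 and Thy1 rose, and the other markers lay below the 75th percentile on every array. The summed feeder marker level, which weighs the brightest probes most, was 22.2 to 22.8 times the 75th percentile in WT and 27.7 to 31.0 times in TKO dishes. The part of these shifts in the differences of the replication genes was not tested.

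Of the 37 tested replication genes, 20 fell, 7 rose and 10 did not pass the test, so that 27 were called (73.0%, where 59.7% of all tested genes were called). The genes that fell were 54.1% of the tested replication genes, where 29.9% of all tested genes fell. Those that rose were 18.9%, against a background of 29.7%. The WT and TKO dishes did not overlap for 28 of the 37 genes (75.7%), and 67.6% of all tested genes were likewise separate. The median difference was -0.19 over the replication genes and -0.012 over all tested genes. Most shifts were small: 19 of the 20 falls were under 2-fold, and 1 gene rose by at least 2-fold (Prim2), where 13.7% of all tested genes were called with a change of at least 2-fold.

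The split between rises and falls depended on how arrays were scaled. Centring each array on its median in place of its 75th percentile moved the median of all genes to -0.21 and gave 4 rises and 25 falls among the replication genes, beside 3835 rises and 9373 falls among all tested genes. The median of the replication genes minus that of all genes, which a constant shift of an array moves little by construction, was -0.174 at the main setting. It ran from -0.321 without a filter on dim probes to -0.121 with quantile normalization. All 37 probes were well above background on all 6 arrays, and the group SDs of their values ran from 0.003 to 0.19.

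**Figure D1:**
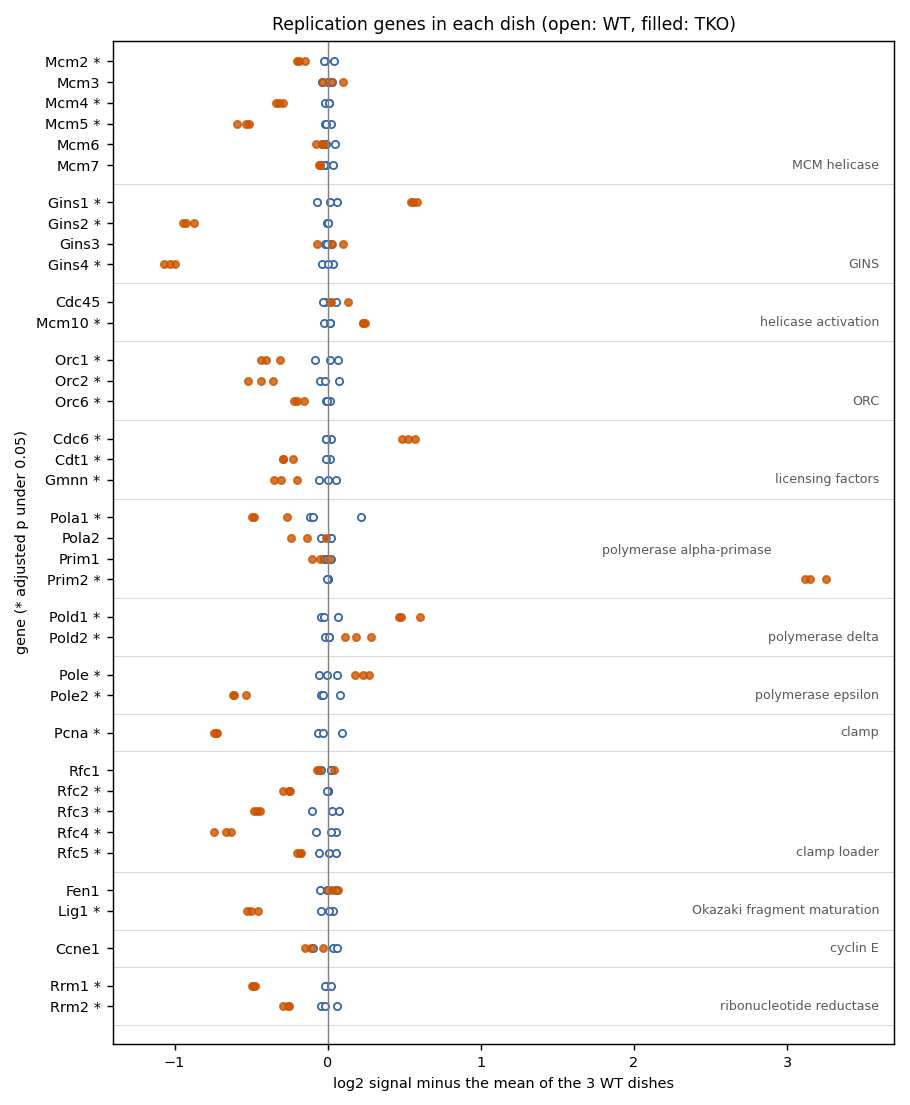
Log2 signal of 37 replication genes in each dish, minus the mean of the 3 WT dishes of that gene (x axis, log2), with genes on the y axis grouped by complex. Open points are WT dishes, filled points are TKO dishes, and an asterisk marks an adjusted p under 0.05. The TKO points lie furthest right for Prim2 and furthest left for Gins4 and Gins2, and the groups do not overlap for 28 genes.

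**Figure D2:**
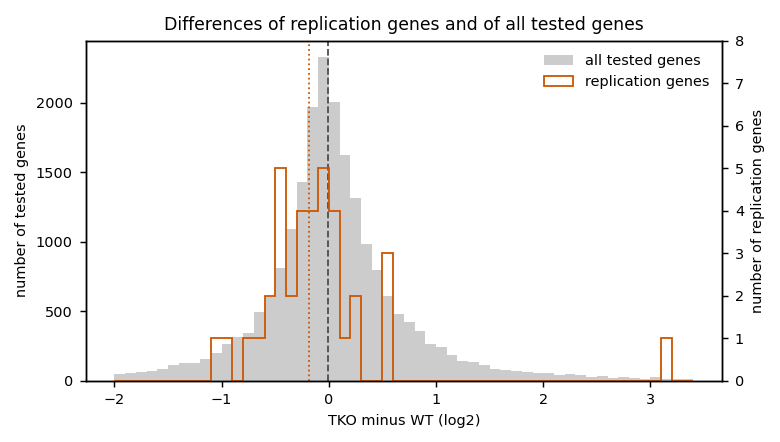
Number of genes by TKO minus WT difference (x axis, log2) in bins of equal width, for all tested genes (grey, left axis) and for the replication genes (orange outline, right axis). The dashed line is the median of all tested genes (-0.012) and the dotted line that of the replication genes (-0.19); genes beyond the drawn range are left out of the grey bars, and Prim2 stands alone at the right.

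Gene starts were examined because E2F-dependent transcription is a textbook property of this gene set. RefSeq promoter windows on build GRCm38.p6, running from 250 bases before to 50 bases after a start, were matched for 29 of the 38 genes, with 35 promoters. The words searched on both strands were TTTCCCGC, TTTCGCGC, TTTGCCGC and TTTGGCGC, 4 forms of the E2F consensus. At least 1 of them was in 13 of the 35 promoters (37.1%), where 2.26% of all 32851 promoters in the table held one. The words were in 7 of 15 genes that fell, in 2 of 4 that rose and in 4 of 10 that did not pass the test. The word CCAAT, the core of the NF-Y element, was in 21 of the 35 promoters on either strand and in 37.4% of all promoters. The word TTTGAA, of the cell cycle genes homology region, was in 14.3% of the 35 promoters and in 17.9% of all promoters. The promoters of the replication genes were also richer in CG dinucleotides, which all 4 E2F words hold, with a median of 21 in 300 bases against 7 over the table. A match is a description of letters and not a binding site, and all 3 outcomes included genes with and without the words.

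The 120 bases before the start are shown for the 4 genes with such a word there, because they show where the words sit in genes that fell (Orc1, Rfc3) and in genes that did not pass the test (Gins3, Mcm6). Capitals mark the E2F words, read 5′ to 3′ on the strand of the gene, and in Mcm6 the first run of capitals holds 2 overlapping words on opposite strands. The windows are chr4:108579334-108579453 on the plus strand (Orc1), chr5:151651209-151651328 on the minus strand (Rfc3), chr8:95633439-95633558 on the plus strand (Gins3) and chr1:128359706-128359825 on the minus strand (Mcm6).
Orc1: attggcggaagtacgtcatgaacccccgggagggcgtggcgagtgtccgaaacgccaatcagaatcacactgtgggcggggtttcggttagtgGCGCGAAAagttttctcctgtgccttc
Rfc3: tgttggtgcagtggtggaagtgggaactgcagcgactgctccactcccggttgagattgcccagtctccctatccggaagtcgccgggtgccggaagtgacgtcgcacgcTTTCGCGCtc
Gins3: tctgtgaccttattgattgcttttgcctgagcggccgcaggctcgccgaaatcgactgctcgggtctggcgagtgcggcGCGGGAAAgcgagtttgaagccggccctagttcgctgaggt
Mcm6: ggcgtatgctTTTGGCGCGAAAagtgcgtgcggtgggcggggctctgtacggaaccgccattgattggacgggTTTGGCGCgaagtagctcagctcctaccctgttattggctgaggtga

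All 3 measured subunits of the origin recognition complex among the members, Orc1, Orc2 and Orc6, fell, where 29.9% of all tested genes fell. Orc1, the largest subunit and an ATPase, was 1.75, 1.65 and 1.80 across WT dishes against 1.33, 1.30 and 1.42 across TKO dishes, and fell by 0.39 ± 0.057 (adjusted p = 0.00208). Orc2, a core subunit, was 1.67, 1.55 and 1.58 across WT dishes against 1.24, 1.07 and 1.16 across TKO dishes, and fell by 0.44 ± 0.060 (adjusted p = 0.00148). For both genes every TKO dish lay below every WT dish. Orc6, the smallest subunit, was 5.24, 5.27 and 5.25 across WT dishes against 5.10, 5.05 and 5.03 across TKO dishes, and fell by 0.19 ± 0.036 (adjusted p = 0.00535). The Orc6 groups were separate as well, but among the 4 arrays of the first array row, which held all WT dishes and TKO replicate 1, its difference was -0.15 with an adjusted p of 0.0883. Of the other ORC subunits, Orc3 also fell (difference -0.21 ± 0.045, adjusted p = 0.00905), Orc5 rose (0.24 ± 0.069, adjusted p = 0.0282) and Orc4 did not pass the test (0.11 ± 0.090, adjusted p = 0.354). Orc3 lost its call with the array row as a block and in the first row alone, and Orc5 was called in 7 of 16 alternative settings.

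The licensing factors, which help load MCM2-7 or restrain that loading, moved in both directions. Cdc6, the ATPase that joins ORC at the origin, was 1.33, 1.30 and 1.30 across WT dishes against 1.88, 1.80 and 1.83 across TKO dishes, and rose by 0.53 ± 0.038 (adjusted p = 0.000112), or 1.44-fold. Its other probe, chr11:98785169-98785228 on build mm9, rose by 0.65 ± 0.067 (adjusted p = 0.000542). Both Cdc6 probes were higher in every TKO dish than in any WT dish. Cdt1, which brings MCM2-7 to the origin, was 6.86, 6.87 and 6.85 across WT dishes against 6.57, 6.63 and 6.56 across TKO dishes, and fell by 0.27 ± 0.037 (adjusted p = 0.00142). Set against Cdt1 on the same array, Cdc6 moved by 0.80 between the groups, and the SD of that within-array value was 0.022 in WT and 0.075 in TKO dishes. The tested genes within 5 Mb had a median difference of 0.38 around Cdc6 on chromosome 11 and -0.25 around Cdt1 on chromosome 8. The part of these regional shifts in the contrast was not tested. Geminin (Gmnn), the inhibitor of Cdt1, was 3.38, 3.28 and 3.34 across WT dishes against 3.13, 3.03 and 2.98 across TKO dishes, and fell by 0.29 ± 0.055 (adjusted p = 0.00585). The second Gmnn probe fell too, by 0.57 ± 0.063 (adjusted p = 0.000698). With the array row as a block the first Gmnn probe had a difference of -0.20 and an adjusted p of 0.0516.

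In the MCM2-7 helicase, the hexameric motor of the fork, 3 of 6 subunits fell and 3 did not pass the test. Of all tested genes, 29.9% fell and 59.7% were called in either direction, a larger share than in this complex. Of the 3 subunits that did not pass the test, Mcm6 and Mcm7 were called lower with median centring. Mcm5 changed most on the probes used: it was 6.12, 6.08 and 6.09 across WT dishes against 5.58, 5.50 and 5.56 across TKO dishes, and fell by 0.55 ± 0.038 (adjusted p = 9.9e-05), to 0.68 of the WT signal. Mcm4 was 6.46, 6.44 and 6.46 across WT dishes against 6.16, 6.14 and 6.12 across TKO dishes, and fell by 0.32 ± 0.034 (adjusted p = 0.000533). Mcm2 was 4.81, 4.80 and 4.86 across WT dishes against 4.67, 4.64 and 4.63 across TKO dishes, and fell by 0.18 ± 0.037 (adjusted p = 0.00798). These 3 subunits had separate groups, although Mcm2 lost its call with the array row as a block (difference -0.15, adjusted p = 0.064). Mcm7 was 6.33, 6.31 and 6.37 across WT dishes against 6.28, 6.29 and 6.29 across TKO dishes, so that the TKO dishes lay just below the WT dishes without passing the test (-0.050 ± 0.034, adjusted p = 0.254). Mcm6 was 7.35, 7.38 and 7.44 across WT dishes against 7.31, 7.36 and 7.36 across TKO dishes, with overlapping groups (-0.047 ± 0.039, adjusted p = 0.345). On the probes used, the differences within this complex ran from -0.55 (Mcm5) to 0.030 (Mcm3, whose other probe is described next). Whether the subunits differ from each other was not tested.

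Mcm3 depended on the probe. The probe used, whose mean over all arrays was slightly the higher, chr1:20793136-20793195 on build mm9, was 6.57, 6.53 and 6.60 across WT dishes against 6.67, 6.58 and 6.53 across TKO dishes, with overlapping groups and a difference of 0.030 ± 0.048 (adjusted p = 0.618), whose sign turned with median centring and with normexp background correction. The other probe, chr1:20793119-20793178, was 7.21, 7.20 and 7.23 across WT dishes and 6.01, 5.92 and 5.87 across TKO dishes, and fell by 1.28 ± 0.050 (adjusted p = 1.74e-05). The probes lie on the same strand, start 17 bases apart and share 43 positions. They differ at 1 of these positions, A31G, counted from 1 at the 5′ end of the first probe. The 30 bases around it, chr1:20793149-20793178 on the minus strand of mm9, are shown because they hold that difference, in capitals.
A_55_P1953087: aagctttctttgcAattagactagtatgta
A_51_P324934: aagctttctttgcGattagactagtatgta

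Across the array, 28 pairs of probes named for the same gene overlapped by at least 30 bases and differed at 1 overlapping base, and their TKO minus WT differences lay a median of 0.037 apart. The Mcm3 pair had the widest gap of the 28, at 1.31. In 262 pairs whose overlapping bases were identical the median gap was 0.052, and 4 of those pairs had a gap at least as wide as that of Mcm3. Which Mcm3 probe reports the transcript cannot be told from these values. Averaging both probes gave a difference of -0.625 (adjusted p = 0.000155).

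**Figure D3:**
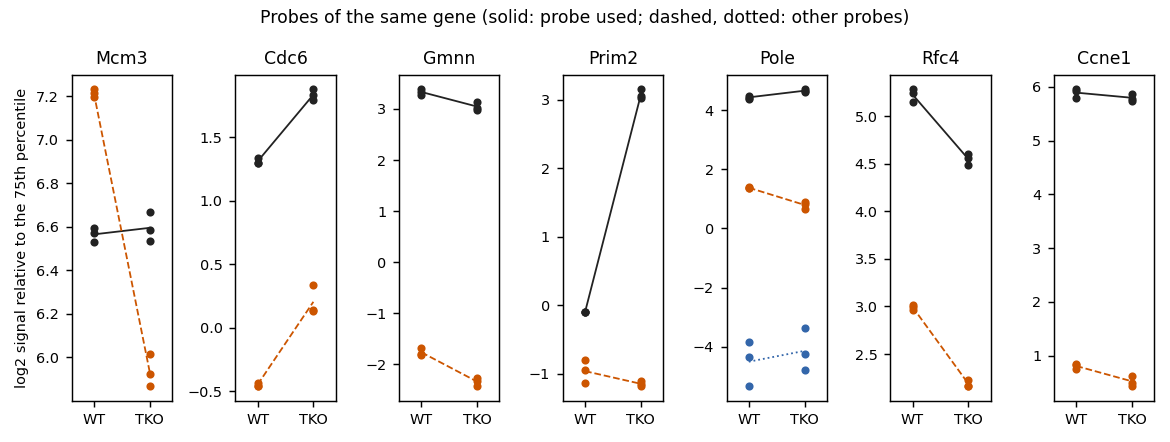
Log2 signal relative to the 75th percentile (y axis) in each WT and TKO dish for the 7 replication genes with more than 1 kept probe, 1 panel per gene with its own scale. Points are dishes, lines join group means, solid lines are the probe used and dashed or dotted lines the other probes. The probes of Mcm3, Prim2 and Pole go different ways, and those of Cdc6, Gmnn, Rfc4 and Ccne1 go the same way.

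The 4 subunits of GINS, the ring-like helper of the helicase, split. Gins4 (also known as Sld5), probe chr8:24337452-24337511, was 4.32, 4.25 and 4.29 across WT dishes against 3.22, 3.29 and 3.26 across TKO dishes. It fell by 1.03 ± 0.040 (adjusted p = 1.27e-05), which is 2.04-fold. Gins2 (Psf2), probe chr8:123112627-123112686, was 3.47, 3.47 and 3.48 across WT dishes against 2.60, 2.54 and 2.53 across TKO dishes, and fell by 0.92 ± 0.036 (adjusted p = 1.35e-05). Gins1 (Psf1), probe chr2:150756868-150756927, went the other way. It was 3.35, 3.22 and 3.30 across WT dishes against 3.87, 3.83 and 3.85 across TKO dishes, and rose by 0.56 ± 0.046 (adjusted p = 0.000188). In all 3 cases the TKO dishes were clear of the WT dishes. Gins3 (Psf3) was 5.00, 4.96 and 4.98 across WT dishes against 5.08, 5.01 and 4.91 across TKO dishes, with overlapping groups and a difference of 0.020 ± 0.052 (adjusted p = 0.764), which turned negative with median centring and with normexp.

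On the same array, the Gins1 value minus the Gins2 value moved by 1.48 between WT and TKO, with SDs of 0.068 and 0.023. Gins1 minus Gins4 moved by 1.59, with SDs of 0.033 and 0.056. A constant shift of an array does not change these values. The pairs were chosen with the calls known, so they describe the size of the split and give no further support for it. Of pairs in other groups, Pole minus Pole2 moved by 0.82, Rrm1 minus Rrm2 by -0.22 and Orc1 minus Orc6 by -0.19.

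Cdc45, the partner of MCM2-7 and GINS in the active helicase, was 0.20, 0.12 and 0.11 across WT dishes against 0.28, 0.16 and 0.16 across TKO dishes. It did not pass the test (0.057 ± 0.051, adjusted p = 0.371). Mcm10, which acts with the helicase when origins fire, was 4.93, 4.90 and 4.93 across WT dishes against 5.15, 5.15 and 5.16 across TKO dishes, and rose by 0.24 ± 0.033 (adjusted p = 0.0016). Its groups were separate, and its call was lost with median centring.

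Polymerase alpha-primase makes the RNA-DNA primers, and its 4 subunits held the widest range of differences of any group. Prim2, the large primase subunit, had the largest difference of all the replication genes. On the brighter probe, chr1:33510733-33510792, it was -0.096, -0.10 and -0.11 across WT dishes against 3.15, 3.05 and 3.02 across TKO dishes, a rise of 3.17 ± 0.046 (adjusted p = 1.32e-06), or 9.02-fold. The gap between the groups was far wider than the spread within either. A second Prim2 probe, chr1:33535912-33535971, gave another picture, with -0.81, -0.96 and -1.14 across WT dishes and -1.11, -1.16 and -1.18 across TKO dishes. Its groups overlapped and its difference was -0.18 ± 0.089 (adjusted p = 0.131). The array lists the first probe under a RefSeq transcript and the second under a cDNA clone. Averaging both gave a rise of 1.49.

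Prim1, the catalytic primase subunit, was 5.07, 5.09 and 5.12 across WT dishes against 5.10, 5.04 and 4.99 across TKO dishes, without passing the test (-0.048 ± 0.043, adjusted p = 0.372). With median centring Prim1 was called lower (-0.243, adjusted p = 0.0432). Set against Prim1 on the same array, Prim2 moved by 3.22 between the groups. Pola1, the catalytic polymerase subunit, was 3.62, 3.28 and 3.31 across WT dishes against 2.91, 2.92 and 3.14 across TKO dishes, and fell by 0.41 ± 0.12 (adjusted p = 0.0239). The Pola1 groups were separate but the dishes of each group spread widely, and leaving out TKO replicate 1 or 2 raised the adjusted p to 0.0724 or 0.07. Pola1 also lost its call with the array row as a block (difference -0.49, adjusted p = 0.0734). Pola2, the accessory B subunit, was -0.55, -0.60 and -0.54 across WT dishes against -0.70, -0.80 and -0.57 across TKO dishes, with overlapping groups (-0.13 ± 0.066, adjusted p = 0.143). It was called lower with median centring (-0.325, adjusted p = 0.0264) and without TKO replicate 3 (-0.189, adjusted p = 0.0377).

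Both subunits of polymerase delta among the members rose, where 29.7% of all tested genes rose. This polymerase is the main lagging-strand enzyme. Pold1, the catalytic subunit, was 4.54, 4.55 and 4.65 across WT dishes against 5.18, 5.06 and 5.05 across TKO dishes, and rose by 0.52 ± 0.056 (adjusted p = 0.00059). Pold2, its regulatory subunit, was 2.96, 2.94 and 2.96 across WT dishes against 3.24, 3.14 and 3.07 across TKO dishes, and rose by 0.20 ± 0.052 (adjusted p = 0.0211). The TKO dishes were above the WT dishes for both genes. The Pold2 call was lost with median centring (difference 0.001, adjusted p = 0.996) and without any 1 of the WT dishes or TKO replicate 2 (adjusted p from 0.054 to 0.0669). The other subunits of this polymerase went opposite ways, as Pold3 rose (0.20 ± 0.034, adjusted p = 0.00369) and Pold4 fell (-0.57 ± 0.066, adjusted p = 0.00074). Pold3 was called in 14 of 16 alternative settings.

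Polymerase epsilon, the leading-strand enzyme, had 1 subunit higher and 1 lower on the probes used. Pole, the catalytic subunit, was 4.38, 4.50 and 4.43 across WT dishes against 4.70, 4.66 and 4.61 across TKO dishes, and rose by 0.23 ± 0.048 (adjusted p = 0.0088) on probe chr5:110766375-110766434. A second Pole probe, chr5:110720154-110720213, fell by 0.58 ± 0.071 (adjusted p = 0.00103), and the dimmest one, well above background on only 4 of 6 arrays, did not pass the test (0.37 ± 0.51, adjusted p = 0.575). The direction of Pole thus depended on the probe, and averaging the probes ended its call, as did median centring. Pole2, the second subunit, was 2.32, 2.33 and 2.44 across WT dishes against 1.83, 1.75 and 1.74 across TKO dishes, and fell by 0.59 ± 0.051 (adjusted p = 0.000225). Its groups were separate by a wide margin. Neither Pole3 (-0.13 ± 0.056, adjusted p = 0.103) nor Pole4 (0.021 ± 0.062, adjusted p = 0.795), the histone-fold subunits, passed the test.

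Pcna, the sliding clamp that holds polymerases on DNA, was 6.86, 6.71 and 6.73 across WT dishes against 6.04, 6.04 and 6.02 across TKO dishes. It fell by 0.73 ± 0.052 (adjusted p = 0.000103), to 0.60 of the WT signal. The SD among the TKO dishes was 0.010, against 0.084 among the WT dishes.

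Of the 5 subunits of replication factor C, the loader that opens the clamp, 4 fell (80.0%, against 29.9% of all tested genes) and 1 did not pass the test. Rfc4 was 5.15, 5.28 and 5.25 across WT dishes against 4.49, 4.60 and 4.56 across TKO dishes, and fell by 0.68 ± 0.053 (adjusted p = 0.000161). Its second probe fell by 0.81 ± 0.041 (adjusted p = 3.91e-05), so both Rfc4 probes were lower in TKO. Rfc3 was 1.20, 1.07 and 1.25 across WT dishes against 0.73, 0.69 and 0.71 across TKO dishes, and fell by 0.46 ± 0.055 (adjusted p = 0.000853). Rfc2 was 4.16, 4.16 and 4.16 across WT dishes against 3.90, 3.87 and 3.92 across TKO dishes, and fell by 0.26 ± 0.034 (adjusted p = 0.0011). These 3 are small subunits shared by the alternative clamp loaders of the cell. Rfc5, another shared subunit, was 6.13, 6.06 and 6.17 across WT dishes against 5.95, 5.92 and 5.94 across TKO dishes, and fell by 0.19 ± 0.042 (adjusted p = 0.0108), a call lost with the array row as a block (difference -0.17, adjusted p = 0.0745). Rfc1, the large subunit that is specific to the replicative loader, was 4.56, 4.62 and 4.62 across WT dishes against 4.64, 4.55 and 4.53 across TKO dishes, with overlapping groups (-0.028 ± 0.047, adjusted p = 0.634). Rfc1 had a small positive difference within the first array row and with normexp.

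The alternative loaders are built on Rfc2, Rfc3, Rfc4 and Rfc5 with another large subunit. Atad5, which unloads PCNA after synthesis, was 1.77, 1.85 and 1.87 across WT dishes against 2.59, 2.58 and 2.62 across TKO dishes, and rose by 0.77 ± 0.042 (adjusted p = 4.06e-05). Chtf18, of the loader tied to sister chromatid cohesion, fell (-0.21 ± 0.052, adjusted p = 0.0171) but was called in only 9 of 16 alternative settings, and its partner Dscc1 did not pass the test (-0.001 ± 0.038, adjusted p = 0.988).

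Enzymes that join Okazaki fragments differed from each other. Lig1, the DNA ligase that seals nicks between fragments, was 6.53, 6.45 and 6.50 across WT dishes against 6.04, 5.99 and 5.97 across TKO dishes, and fell by 0.50 ± 0.040 (adjusted p = 0.000181). Fen1, the flap endonuclease that trims fragment ends, was 5.11, 5.00 and 5.05 across WT dishes against 5.06, 5.12 and 5.08 across TKO dishes. The Fen1 groups overlapped and the gene did not pass the test (0.034 ± 0.043, adjusted p = 0.535).

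Both subunits of ribonucleotide reductase among the members fell, where 29.9% of all tested genes fell. This enzyme makes deoxyribonucleotides. Rrm1, the large subunit, was 4.52, 4.50 and 4.54 across WT dishes against 4.05, 4.03 and 4.02 across TKO dishes, and fell by 0.49 ± 0.033 (adjusted p = 8.65e-05). Rrm2, the S-phase small subunit, was 6.69, 6.72 and 6.79 across WT dishes against 6.45, 6.49 and 6.48 across TKO dishes, and fell by 0.27 ± 0.042 (adjusted p = 0.00268). No TKO dish reached the lowest WT dish in either gene. The stress-induced small subunit Rrm2b, which is no member, did not pass the test (0.39 ± 0.18, adjusted p = 0.108).

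Cyclin E drives entry into S phase with Cdk2. Ccne1 was 5.93, 5.80 and 5.95 across WT dishes against 5.75, 5.86 and 5.78 across TKO dishes, with overlapping groups (-0.096 ± 0.059, adjusted p = 0.211). A second Ccne1 probe fell by 0.29 ± 0.064 (adjusted p = 0.0114). The gene was called lower with median centring (-0.291, adjusted p = 0.0166) and with the mean of its probes (-0.191, adjusted p = 0.036). Ccne2 had -5.58, -5.93 and -5.56 across WT dishes and -5.20, -5.55 and -5.44 across TKO dishes, all not well above background, so no difference is given.

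Probe positions are on build mm9, and the 37 tested genes lay on 14 chromosomes. Each gene was set beside the median difference of all tested genes within 5 Mb of its probe. Tested genes on chromosome 8 were lower in TKO as a whole (median -0.22, 49.6% of 1173 genes called lower and 19.1% higher). Those on chromosome 11 were higher (median 0.34, 57.4% of 1616 genes called higher and 14.0% lower). Chromosome 1, with 4 replication genes, was lower to a smaller degree (median -0.125, 40.3% of 1233 genes called lower and 20.4% higher). Of the 6 replication genes on chromosome 8, 5 fell: Gins2, Gins4, Mcm5, Cdt1 and Orc6. Both on chromosome 11, Cdc6 and Pold2, rose.

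Several of these shifts were close to those of their neighbours and others were not. Gins4 lay 0.70 below its window median of -0.33, and Gins2 lay 0.65 below its window median of -0.27. Mcm5 was 0.34 below its window. Cdt1 was at -0.27 where its window median was -0.25, and Orc6, at -0.19, was higher than its window at -0.37. Gins3, the chromosome 8 gene that did not pass the test, was 0.29 above its window. On chromosome 11, Cdc6 was 0.14 above its window median of 0.38, and Pold2 was below its window median of 0.40. Prim2 rose within a window on chromosome 1 whose median was -0.32, and Orc2 on the same chromosome was 0.11 below its window at -0.33. Over the 37 genes, 26 lay below their window median and 11 above it, with a median offset of -0.12.

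Leaving out chromosome 8 left 31 tested replication genes, of which 15 fell (48.4%, against 28.8% of all tested genes off chromosome 8) and 7 rose (22.6%, against 30.4%). Without chromosomes 8 and 11, 15 of 29 fell (51.7%, against 30.1%) and 5 rose (17.2%, against 28%). The counts off these chromosomes thus kept more falls than rises at the main setting. They still hold the genes of chromosome 1, where tested genes were also lower. The cause of the chromosome-wide shifts was not tested.

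**Figure D4:**
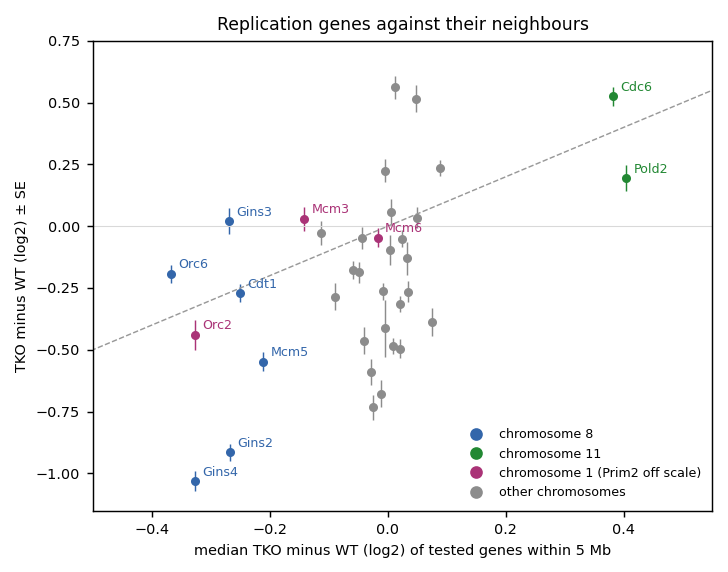
TKO minus WT difference of each replication gene (y axis, log2, points with SE bars) against the median difference of all tested genes within 5 Mb of its probe (x axis, log2). The dashed line marks equal values. Gins2 and Gins4 on chromosome 8 lie well below it, Cdt1 lies near it, Cdc6 on chromosome 11 lies just above it, and Prim2 (3.17) is off scale.

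A wider list of 73 other genes of replication and of entry into S phase was examined beside the members, and all 73 could be tested. Of these, 28 fell (38.4%, against 29.9% of all tested genes), 19 rose (26.0%, against 29.7%) and 26 did not pass the test, with a median difference of -0.057. With median centring 9 rose and 38 fell, where 3835 of all 21562 genes rose and 9373 fell.

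Among 11 further origin and licensing genes, 4 rose (36.4%, against 29.7% of all tested genes), 2 fell (18.2%, against 29.9%) and 5 did not pass the test. The rises included both subunits of the kinase that triggers MCM2-7, Dbf4 (0.59 ± 0.039, adjusted p = 8.32e-05) and Cdc7 (0.38 ± 0.067, adjusted p = 0.00446). Ticrr, which helps recruit Cdc45 and GINS, also rose (0.42 ± 0.040, adjusted p = 0.000337). The difference of Cdc7 was 0.18 with median centring, which ended its call (adjusted p = 0.104), and 0.179 with normexp. Donson, another firing factor, fell (-0.44 ± 0.036, adjusted p = 0.000195).

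Among 20 further genes of the fork, 6 rose, 7 fell and 7 did not pass the test. Of all tested genes, 29.7% rose and 29.9% fell, so both counts lay near the background. Dna2, a nuclease-helicase of flap processing, rose (0.66 ± 0.056, adjusted p = 0.000207), as did the topoisomerase Top2a (0.36 ± 0.046, adjusted p = 0.00106). Top2a and Atad5 are on chromosome 11, where tested genes were higher as a whole, and Top2a lay 0.021 below its window median of 0.38. Median centring ended the Top2a call (0.169, adjusted p = 0.117). Dna2 lay 0.16 above a raised window on chromosome 10 (median 0.50). Rnaseh2a, the catalytic subunit of the enzyme that removes ribonucleotides, fell (-0.76 ± 0.043, adjusted p = 4.57e-05), and so did Wdhd1, which links the helicase to polymerase alpha (-0.54 ± 0.034, adjusted p = 6.62e-05). Of the single-strand binding protein RPA, Rpa3 rose (0.15 ± 0.044, adjusted p = 0.0317), although it was called in only 5 of 16 alternative settings and its difference ran down to -0.049, while Rpa1 (0.048 ± 0.057, adjusted p = 0.502) and Rpa2 (0.094 ± 0.043, adjusted p = 0.114) did not pass the test.

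Rnaseh2a, like Dctd and Asf1b described next, is on chromosome 8. Among further nucleotide supply genes, 3 of 9 fell (33.3%, against 29.9% of all tested genes). Dctd, a dCMP deaminase (-0.87 ± 0.067, adjusted p = 0.000143), Dtymk, the thymidylate kinase (-0.43 ± 0.035, adjusted p = 0.000184), and Samhd1, which degrades dNTPs (-0.22 ± 0.032, adjusted p = 0.00194), fell, although Samhd1 lost its call with the mean of its probes. Of 5 genes of chromatin assembly behind the fork, 2 rose and 2 fell (40.0% each, against 29.7% and 29.9% of all tested genes). The histone chaperone Asf1a (0.52 ± 0.090, adjusted p = 0.00378) and Chaf1b of the CAF-1 complex (0.36 ± 0.033, adjusted p = 0.000276) rose, although Asf1a lay 0.43 below its window on chromosome 10, whose median over 25 genes was 0.96. Both lost the call with median centring, and Asf1a with quantile normalization too. The replication-linked chaperone Asf1b (-0.92 ± 0.051, adjusted p = 4.33e-05) and Slbp, which binds histone mRNA (-0.48 ± 0.050, adjusted p = 0.000473), fell.

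Of 28 genes that control entry into S phase, 14 fell, 6 rose and 8 did not pass the test, where 29.9% of all tested genes fell and 29.7% rose. Both activating and restraining factors were among the falls. The activator E2f2 was 2.64, 2.71 and 2.70 across WT dishes against 1.44, 1.46 and 1.44 across TKO dishes, and fell by 1.24 ± 0.037 (adjusted p = 6.05e-06), while the activators E2f1 (-0.012 ± 0.041, adjusted p = 0.829) and E2f3 (0.055 ± 0.055, adjusted p = 0.425) did not pass the test. The pocket protein gene Rbl2, on chromosome 8 and well above background on only 1 TKO array, had a difference of -1.78 ± 0.092 (adjusted p = 3.39e-05), which was -0.749 with normexp. The CDK inhibitor Cdkn2c fell by 1.36 ± 0.15 (adjusted p = 0.000557), and its difference was -0.636 with normexp. The sizes of both changes thus depended on the background correction. Rises were led by Cdkn1c, a CDK inhibitor (0.81 ± 0.054, adjusted p = 8.69e-05), the D-type cyclin Ccnd2 (0.58 ± 0.066, adjusted p = 0.000681) and the phosphatase Cdc25a (0.58 ± 0.040, adjusted p = 9.9e-05).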

How the data were processed

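RNA of 3 WT and 3 TKO dishes was measured on 1 slide, 1 array per dish, and the number of arrays limits the precision. Per the submitters' processing notes, the scanner images were read with Agilent Feature Extraction 11.5.1.1. The deposited scanner files give intensity on a linear scale (processed, mean and local background signal), and per the file headers the processed signal had its background subtracted without any scaling between arrays. They also flag each spot with 0 or 1 as well above background, saturated or an outlier, which was treated as another unit (other). The authors deposited, in addition, a value table of 55821 probes whose scale is not stated. Compared with the scanner files, each deposited column was log2 of the processed signal with a constant shift (r = 1.0), and column medians were -3.96, -3.95 and -4.02 for WT and -3.89, -3.72 and -3.81 for TKO. Its 75th percentile was near 0 in every column (0.01), but its centring is not given in the sources used here.

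Here, control and outlier spots were left out, spots of a probe were averaged, and the 75th percentile of each array was subtracted on the log2 scale. Of 55681 probes, 30734 were well above background on at least 3 of 6 arrays and were kept. On single arrays, 51.9% to 58.5% of non-control spots were well above background and 0 were saturated. Each gene was represented by the brightest of its kept probes, averaged over the 6 arrays. Differences were tested with limma 3.58.1 (lmFit, eBayes, two-sided) in R 4.3.3, with Benjamini-Hochberg adjustment over 21562 genes. Other probes of a gene were tested in a fit over all kept probes. The procedure was run on simulated data with independent values and few changed genes. That simulation held no chromosome-wide shifts and no array row effect, so it cannot speak to them.

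Array row 1 of the slide held the WT dishes and TKO replicate 1, and row 2 held the other TKO dishes. A fit with array row as a block therefore rests each difference on TKO replicate 1, as does the first row alone. In row 2 the SD of negative controls was 7.06 to 13.05 intensity units, against 0.83 to 3.92 in row 1. Alternatives were quantile and median scaling, normexp correction (offset 50), the deposited table, other filters, the mean of probes, leaving out each dish, and replicate or array row as a block. Positions are on mm9 per the file headers, and exons and UTRs were not annotated here. Promoters are from RefSeq on GRCm38.p6. All members were named, with Tet1, Tet2 and Tet3 and, from each list of other replication genes, up to 3 rises and 3 falls with the largest differences. A gene that this rule names is not reported here. Further subunits of the members' own complexes, subunits of RPA and of the alternative clamp loaders, E2f1 and E2f3 were named after their values were seen. The members and lists were chosen with earlier results of these data known.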

Additional observations from a re-analysis of the deposited data

How the results depend on the processing

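Across 16 alternative settings and the other probes, 600 differences of the replication genes were recomputed: 550 kept their direction and side of the threshold, 24 lost the call, 8 gained one and 18 changed sign. The genes called lower stayed between 15 and 25 and those called higher between 4 and 7. Leaving out each dish gave 6 to 7 higher and 19 to 21 lower members, 16 to 19 higher and 24 to 29 lower other replication genes, and 11532 to 12469 called genes in all. Median centring gave 4 higher members and 9 higher other genes, losing Mcm10, Pold2 and Pole. The replicate numbers did not pair the dishes (correlations of same-numbered deviations -0.069, -0.024 and 0.006). With the replicate block 6 members were higher and 19 lower, 18 and 23 of the other genes, and 11646 genes were called in all. With array row as a block and in the first row alone, the differences of the members were the same, because both rest on TKO replicate 1. Their median was -0.154, against -0.186 at the main setting.

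The sign changes were of genes that did not pass the test, except for Prim2 and Pole on their other probes; the fit of other probes was chosen after seeing the data. The difference of Mcm3 was -0.165 with median centring, -0.011 with normexp, -0.625 with the mean of probes, from -0.006 to 0.061 without 1 dish (lowest without TKO replicate 1) and -1.28 on its other probe. The difference of Gins3 was -0.175 with median centring, -0.014 with normexp and from -0.020 to 0.064 without 1 dish (lowest without TKO replicate 1). With median centring the difference of Cdc45 was -0.137 and the difference of Fen1 -0.161, and with normexp the difference of Fen1 was -0.013 and the difference of Rfc1 0.012. With array row as a block and in the first row alone the difference of Prim1 was 0.009 and the difference of Rfc1 0.041. On other probes the difference of Prim2 was -0.18 and the difference of Pole -0.58. The cause was not tested. Ccne2 is limited by its signal over background.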
